A study of Mus musculus with 4 samples.

Results

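Forkhead (Fox) transcription factors were described across 4 Affymetrix arrays of mouse RNA, 1 array for each kind of cell. The members were the genes whose only symbol in the array's annotation is Fox followed by a class letter and a number, which gave 37 of the 18193 genes measured, in 17 classes. Each gene was read from the probe set with the highest mean log2 signal over the 4 arrays, so that choice used the signals. The arrays held, by their labels, cells sorted for HB9-GFP, cerebellar granule cells taken at postnatal day 6, neural stem cells sorted by Sox1, and undifferentiated embryonic stem (ES) cells. The HB9-GFP cells are labelled as an HB9 transgenic ES line with a green fluorescent protein (GFP) reporter. HB9 is the product of the motor neuron gene Mnx1. The culture notes are the same for all 4 samples. In them, sonic hedgehog, retinoic acid (0.1 uM) and purmorphamine (0.2 uM), a hedgehog pathway agonist, are listed for day 5 to day 9 of differentiation, while the sort is dated to day 8, so the length of exposure is uncertain. They describe an HB9 ES line grown with leukemia inhibitory factor over a feeder layer of mouse embryonic fibroblasts arrested with mitomycin. How the Sox1 and granule cells were isolated, which strain or age the other cells had and whether samples were pooled were not given in the sources used here.

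Forkhead proteins bind DNA through a winged-helix domain that the whole family shares, and the classes differ in the rest of the protein. The FoxA factors open chromatin in endoderm and the floor plate of the neural tube, FoxO factors are held out of the nucleus by Akt signalling, FoxP factors act as dimeric repressors in brain and immune cells, and Foxm1 drives mitotic genes. In mouse embryos Foxd3 is needed to maintain the pluripotent epiblast, and Foxh1 carries Nodal signals to DNA together with Smad proteins.

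Promoter windows of 4 members are shown as examples of high, middle and low CpG density in the family. Each window runs from 250 bases before to 50 bases after an annotated start, 5′ to 3′ on the gene's strand, from RefSeq on GRCm38.p6, and capitals mark every CpG dinucleotide. Foxk2, on the plus strand at chr11:121259737-121260036, had 59 CpG dinucleotides, the most among the members' windows. Foxd3, on the plus strand at chr4:99656049-99656348, had 25. Foxa2 has several windows, and the one with the most CpG, on the minus strand at chr2:148045899-148046198, had 23. Foxn3, on the minus strand at chr12:99450025-99450324, had 6.
Foxk2: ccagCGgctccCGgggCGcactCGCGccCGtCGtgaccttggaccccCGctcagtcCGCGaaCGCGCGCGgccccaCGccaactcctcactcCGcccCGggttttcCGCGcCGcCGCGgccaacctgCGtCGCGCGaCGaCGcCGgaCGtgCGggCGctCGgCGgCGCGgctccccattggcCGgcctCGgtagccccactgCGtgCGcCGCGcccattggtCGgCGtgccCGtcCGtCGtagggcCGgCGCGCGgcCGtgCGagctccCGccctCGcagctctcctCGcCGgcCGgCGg
Foxd3: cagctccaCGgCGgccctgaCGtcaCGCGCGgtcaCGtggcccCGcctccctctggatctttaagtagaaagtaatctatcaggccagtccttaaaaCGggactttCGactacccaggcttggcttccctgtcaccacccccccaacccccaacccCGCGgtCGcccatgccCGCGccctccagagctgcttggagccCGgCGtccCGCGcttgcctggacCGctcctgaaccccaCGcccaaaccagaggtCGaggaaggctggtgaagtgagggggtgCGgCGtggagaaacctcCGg
Foxa2: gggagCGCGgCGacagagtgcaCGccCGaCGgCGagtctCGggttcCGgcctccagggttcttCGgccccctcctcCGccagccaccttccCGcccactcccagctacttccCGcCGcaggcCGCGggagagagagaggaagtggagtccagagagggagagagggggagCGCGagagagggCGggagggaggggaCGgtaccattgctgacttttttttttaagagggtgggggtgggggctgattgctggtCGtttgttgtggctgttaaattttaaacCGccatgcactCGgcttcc
Foxn3: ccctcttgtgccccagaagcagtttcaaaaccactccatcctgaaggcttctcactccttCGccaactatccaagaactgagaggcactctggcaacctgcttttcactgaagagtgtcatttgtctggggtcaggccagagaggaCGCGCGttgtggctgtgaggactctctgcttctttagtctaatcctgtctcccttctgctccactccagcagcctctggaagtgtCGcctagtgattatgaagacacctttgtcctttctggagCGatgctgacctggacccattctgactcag

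The promoter table held 29 windows for 24 of the 37 members. Taking the window with the most CpG for each gene, the 7 members with a window that were detected on all 4 arrays had a median of 37 CpG dinucleotides and a range of 6 to 59. For the 5 members detected on 1 to 3 arrays the median was 26 and the range 23 to 33, and for the 12 undetected members it was 13.5 and 6 to 32. The median over 17492 protein-coding genes with a window was 15. These classes overlap, Foxn3 being detected on all 4 arrays with 6 CpG dinucleotides, and the numbers are a description without a test. The core sequence bound by forkhead factors, TGTTTAC on either strand, was in 1 of the 29 windows, that of Foxa1, against 3.65% of all 32851 windows. The TATA box letters TATAAA, also on either strand and sharing none of their positions with that core in these windows, were in 3 of the 29 windows, those of Foxa2, Foxa3 and Foxp3, against 13.6% of all windows. For Foxa2 they were not in the window printed above but in that at chr2:148045415-148045714. They began there at -208 from the start, on the reverse strand. For Foxa3 and Foxp3 they began at -36 and -32, on the gene's strand.

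Signals are the deposited linear intensities, which have a common trimmed average on all arrays, and different probe sets are not comparable in level. The low level was a signal of 78.8, the mean of the arrays' median log2 signals, and lower values were raised to it before taking a difference. A gene was called detected at a signal of 157.5 or more, 1 log2 unit above the low level. A comparison called it higher or lower when its 2 log2 values lay 2 units or more apart, a 4-fold change, and the brighter array detected it. With 1 array per group there was no replicate check, no p-value and no SD, so each difference is one between these arrays, and cell composition cannot be told apart from RNA per cell. Folds taken against a signal under the low level are bounds, written "at least". For a dimmer signal above the low level but undetected, the signals stand without a fold.

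The array labelled HB9-GFP+ went against its label. Mnx1 had a signal of 15.9 on it, against 5.8 on the ES array, both undetected, and 2 of 12 motor neuron markers were detected on it, against 1 on the ES array. Slit2 and Olig2, 2 of the 12, were called higher on it than on the ES array and 0 lower, beside 1.11% and 0.813% of all genes. Both were also called higher on the granule array than on the ES array. Of 26 measured pluripotency genes, the array labelled HB9-GFP+ detected 26, granule 3, Sox1 14 and ES 26. Of 12 fibroblast markers, the array labelled HB9-GFP+ detected 12, granule 9, Sox1 4 and ES 4. Summed fibroblast signals were 31439.6, 8743.3, 4214 and 9725 in that order, and what part the feeder cells had in them was not tested. All 10 neural progenitor markers were detected on the Sox1 array, with Sox1 at 2262.1 against 193.5 on the ES array. On the granule array all 13 neuron markers and 10 of 11 granule neuron markers were detected, and so were 9 of 10 markers of astrocytes and oligodendrocytes. The 3 comparisons that leave out the array labelled HB9-GFP+ do not rest on its label, and setting the low level and choosing probe sets without it gave the same forkhead calls in them.

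Forkhead genes were detected in similar numbers on the 4 arrays. The array labelled HB9-GFP+ had 14 of 37 detected, the granule array 13, the Sox1 array 16 and the ES array 15. Of all genes, 51.3%, 52.3%, 51.5% and 51.8% were detected on the same arrays. In all, 11 members were detected on every array, 8 on 1 to 3 arrays and 18 on none. Detection on every array covered 29.7% of the forkhead genes, beside 40.6% of all genes. The 11 were Foxj2, Foxj3, Foxk1, Foxk2, Foxm1, Foxn2, Foxn3, Foxo1, Foxo3, Foxo4 and Foxp1. Detection on at least 1 array thus covered 51.4% of the forkhead genes, beside 63.6% of all genes.

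**Figure D1:**
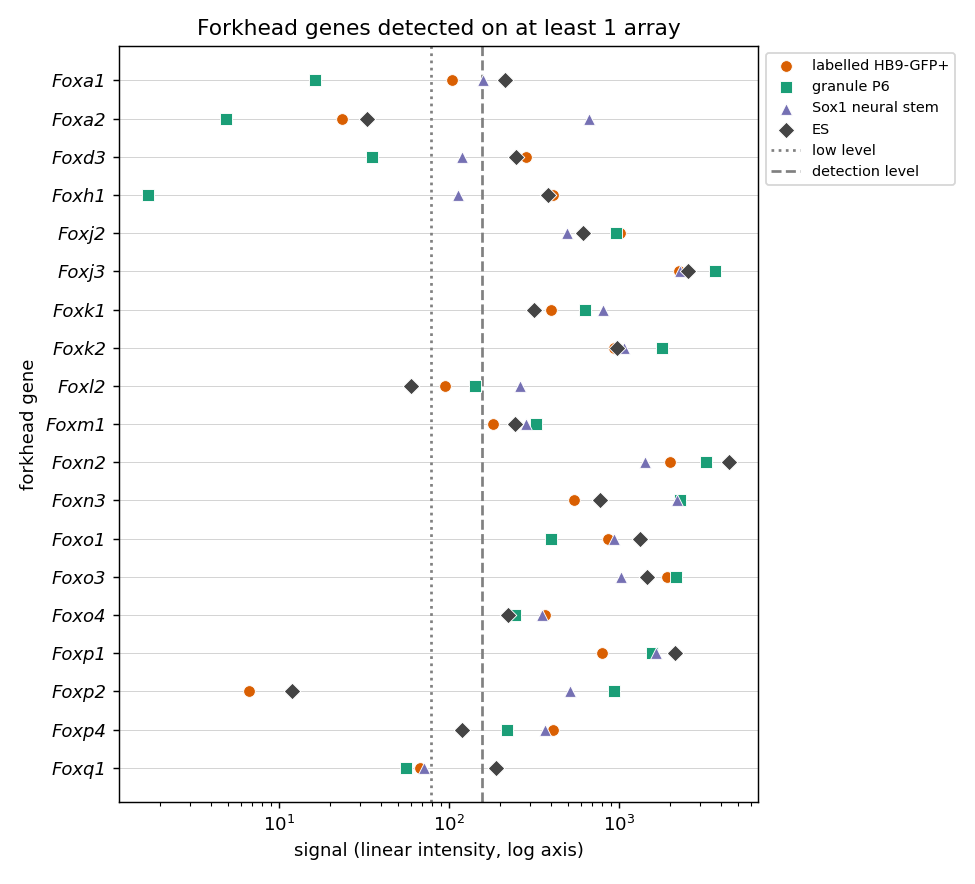
Signal (linear intensity, log axis) of the 19 forkhead genes detected on at least 1 array, with 1 point per array and vertical lines at the low level of 78.8 and the detection level of 157.5. Foxp2 stands above the detection level on the granule and Sox1 arrays (938.9 and 515.4) and far below it on the array labelled HB9-GFP+ and the ES array (6.7 and 12), while Foxa2 passes it on the Sox1 array alone (670.3).

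By the rule of size, 4 of the 37 forkhead genes were called in at least 1 of the 6 comparisons: Foxa2, Foxh1, Foxn3 and Foxp2. Against the ES array, the array labelled HB9-GFP+ gave 0 higher and 0 lower, where 1.11% of all genes were higher and 0.813% lower. Granule over ES had 1 higher (Foxp2) and 1 lower (Foxh1), beside 6.83% and 4.99% of all genes. With arrays centred on 11 reference genes this split became 9 higher and 0 lower, beside 23.6% and 1.44% of all genes, and with centring on those genes' deviations from their own means it was 2 higher and 1 lower. Sox1 against ES gave 2 higher (Foxa2 and Foxp2) and 0 lower, beside 3.59% and 3.02% of all genes. Set against the Sox1 array, the array labelled HB9-GFP+ gave 0 higher and 3 lower (Foxa2, Foxn3 and Foxp2), beside 3.22% and 3.97%. Over the granule array it gave 1 higher (Foxh1) and 2 lower (Foxn3 and Foxp2), beside 5.53% and 7.41%. Granule against Sox1 gave 0 higher and 1 lower (Foxa2), beside 3.66% and 2.09%. With 37 members, 1 gene is 2.70% of the family, so counts this small do not set the family apart from all genes. The median log2 difference was 0 in each comparison, over forkhead genes and over all genes alike, since many values lie at the low level. When the probe sets of a gene were averaged, Foxa2 alone among the forkhead genes was still called. It has 1 probe set, so averaging could not change its signals and does not set it apart from the others. These comparisons share arrays, so a gene called in several of them is not independent evidence.

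**Figure D2:**
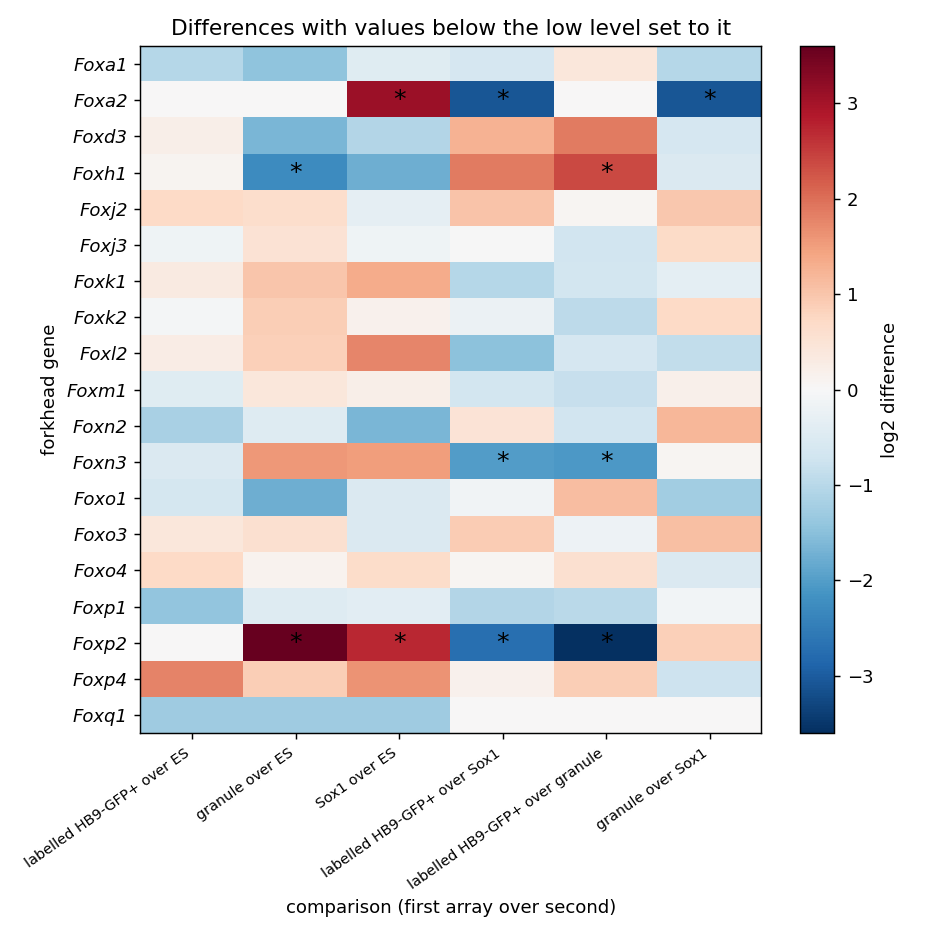
Log2 difference (colour, first array over second, with the low level as the lowest value allowed) of the 19 detected forkhead genes in the 6 comparisons, with an asterisk where the gene was called. The 11 asterisks belong to Foxa2, Foxh1, Foxn3 and Foxp2, and the column of the array labelled HB9-GFP+ over the ES array has none.

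Among the FoxA factors, Foxa2 was confined by the detection rule to the Sox1 array of these 4. Foxa2 specifies the floor plate and endoderm. Its single probe set read 23.6 (array labelled HB9-GFP+), 4.9 (granule), 670.3 (Sox1) and 33 (ES). The Sox1 signal was thus at least 8.51-fold higher than each of the others, a log2 difference of at least 3.09. Foxa1, which overlaps with Foxa2 in endoderm, had a different order, at 105.2, 16.3, 159.5 and 214.6 on the same arrays, and was detected on the Sox1 and ES arrays. The Sox1 value lay just above the detection level of 157.5. Foxa1 was undetected on Sox1 when the low level was set without the array labelled HB9-GFP+, and with centring on the reference genes' deviations. Its Sox1 and ES signals differed by 1.35-fold, and on the granule array it was at least 2.72-fold lower than on the ES array and not called. Foxa3, a liver and gut member, was undetected throughout, at 70.4, 14.8, 44.3 and 80.9.

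Floor plate genes measured beside Foxa2 were also higher on the Sox1 array than on the ES array in part. Of 20 measured, 6 were higher and 1 lower, beside 3.59% and 3.02% of all genes. The median over the list was 1.19 log2 units. Shh, the ligand that the floor plate secretes, read 758.2 on Sox1 against 68 on ES. The axon guidance ligand Ntn1 was at 1263.4 against 30.6, the matrix protein gene Spon1 at 662.6 against 11.7, and the homeodomain factor Nkx2-2, which marks the adjacent progenitor domain, at 455.9 against 23.3. The Wnt receptor gene Fzd5 was the lower member, at 207.7 on Sox1 against 3270.7 on ES. With Foxa2 undetected on the granule array, 4 of the 20 were still higher than on the ES array there (Ntn1, Nkx2-2, Spon1 and Slit2) and 2 were lower, so those genes did not follow Foxa2 over the arrays. Shh on the granule array was at 160.3. For the array labelled HB9-GFP+, 2 were higher and 1 lower than on the ES array, and 1 higher and 5 lower than the Sox1 array.

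Endoderm genes, the other setting in which Foxa1 and Foxa2 act, were mixed on the Sox1 array. Of 23 measured, 3 were higher and 1 lower than on the ES array (median -0.47), beside 3.59% and 3.02% of all genes. The higher ones were the plasma carrier gene Ttr (1062.6 against 24.7), the fetal serum protein gene Afp (528 against 16.6) and the chemokine receptor gene Cxcr4 (2198.6 against 136). Gata6, a determinant of primitive endoderm, was lower, at 107.7 on Sox1 against 457.9 on ES. The endoderm determinant Sox17 was at 220 on Sox1 against 444.5 on ES and Gata4 at 57.9 against 120.8, neither called. Ttr is also a choroid plexus gene, and of 10 ependymal and choroid plexus markers 3 were detected on the Sox1 array and 2 on the ES array. Of the 10, Ttr and Clic6 were called higher on Sox1 than on ES and Folr1 lower. On granule, 2 endoderm genes were higher and 6 lower than on ES (median -0.62), and the array labelled HB9-GFP+ against ES gave 0 higher and 1 lower.

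Foxd3 and Foxh1 were both detected on the array labelled HB9-GFP+ and the ES array and on neither of the others. Foxh1 read 412.6 (array labelled HB9-GFP+), 1.7 (granule), 112.7 (Sox1) and 382 (ES). It was at least 5.24-fold higher on the array labelled HB9-GFP+ than on the granule array, and at least 4.85-fold lower on the granule array than on the ES array. A further Foxh1 probe set ran the same way, at 240.2, 2.2, 47.1 and 154.7, but its ES value falls just under the detection level. The third was undetected throughout. Foxd3 was measured once, at 286.6, 35.6, 119.8 and 248.3 on the same arrays. It was at least 3.64-fold higher on the array labelled HB9-GFP+ than on the granule array and at least 3.15-fold lower on granule than on ES. Neither bound reaches 4-fold, so neither was called, but with no low level set both comparisons called it. Between the array labelled HB9-GFP+ and the ES array, Foxd3 differed by 1.15-fold and Foxh1 by 1.08-fold.

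Genes of the Nodal pathway that Foxh1 serves showed the same grouping of arrays for some of their members. On granule, 1 was higher and 6 lower than on ES of 22 measured (median -0.04), beside 6.83% and 4.99% of all genes. The lower ones included the Nodal co-receptor Tdgf1 (25 on the granule array against 17646 on the ES array), the ligand Nodal (60.3 against 2911.5) and the secreted antagonists Lefty2 (12.5 against 2487.2) and Lefty1 (14.6 against 1260.8). The higher one was the homeodomain factor Lhx1, which Purkinje cells also express. Sox1 against ES gave 1 higher, the transducer Smad3 (2013.8 against 416.2), and 4 lower (median -0.32). Lefty1 and Tgif1, both among the lower genes of the granule array, were not called lower on Sox1. Lefty1 was at 884.4 on Sox1 against 1260.8 on ES. Smad2, the other receptor-activated transducer, was detected on every array, at 1055.7, 1116.1, 746.6 and 1182.3. No gene of the list was called between the array labelled HB9-GFP+ and the ES array. That array had 4 higher and 1 lower than the Sox1 array, and 6 higher and 2 lower than the granule array.

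Neural crest genes, the other setting in which Foxd3 is known, did not share its order. Of 20 measured, 8 were higher and 2 lower on the granule array than on the ES array (median 0.73). That stands beside 6.83% and 4.99% of all genes. On the Sox1 array 5 were higher and 1 lower than on the ES array (median 0.73), beside 3.59% and 3.02%. Genes higher on both included Zic1, at 17613.9 on the granule array and 8468.3 on Sox1 against 70 on ES. Another was Ednrb, the endothelin B receptor gene, at 6042.8 and 4378.2 against 35.7. Zic1 also marks granule cell precursors, and Ednrb also marks radial glia. Erbb3, a neuregulin receptor gene, was lower on both, at 144.6 and 147.1 against 1033.9. Sox10, a defining crest factor, was undetected on the Sox1 and ES arrays, at 119.5 and 86.3, and stood at 179.7 on the granule array. None of the 20 was called between the array labelled HB9-GFP+ and the ES array.

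The FoxP class differed member by member. Foxp2, a repressor known for its role in vocal learning and in cerebellar Purkinje cells, read 6.7 (array labelled HB9-GFP+), 938.9 (granule), 515.4 (Sox1) and 12 (ES). It was thus detected on both neural arrays and on neither of the others. Granule was at least 11.9-fold and Sox1 at least 6.54-fold higher than ES, and the array labelled HB9-GFP+ was lower than both by the same bounds. Granule and Sox1 differed by 1.82-fold. Of the other 5 probe sets of Foxp2, 2 were detected, and both were higher on the 2 neural arrays than on the others. Their log2 differences were at least 2.10 and 2.12 for granule over ES and at least 1.41 and 1.55 for Sox1 over ES, bounds because their ES signals were 33.3 and 3.8. The other 3 probe sets were undetected on all 4 arrays.

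Foxp1, which is also needed for motor column identity in spinal cord, was detected on all 4 arrays and had 8 probe sets. The representative read 797.3 (array labelled HB9-GFP+), 1560.6 (granule), 1658.4 (Sox1) and 2142.9 (ES). It was 2.69-fold lower on the array labelled HB9-GFP+ than on the ES array, and the 6 other probe sets detected on either array had the same sign. Probe sets of a gene share the RNA and are not replicates. Granule and Sox1 against ES gave no such agreement, since 4 of 6 other detected probe sets shared the sign of the representative in each. Foxp4 was brightest where Foxp1 was dimmest and dimmest where it was brightest, at 409.8, 220.1, 368.3 and 119.6, with the ES array alone below detection. Foxp3, the regulatory T cell factor, was undetected, at 15.7, 26.8, 53.8 and 31.8.

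Of 23 measured partners and proposed targets of FoxP factors, 5 were higher and 0 lower on granule than on ES (median 1.07). That stands beside 6.83% and 4.99% of all genes. On the Sox1 array 5 were higher and 0 lower (median 0.62), beside 3.59% and 3.02%. Shared between the arrays were the corepressor Ctbp1, at 9036.7 on granule and 7337.3 on Sox1 against 657.9 on ES, Auts2 (9561.5 and 11677.6 against 904.8), the neuronal helix-loop-helix factor Nhlh1 (3102.7 and 587.3 against 18.7) and Lmo4. Mef2c, which Foxp2 represses in striatum of mice, was higher on the granule array at 585.7 against 62 on the ES array, and undetected on the Sox1 array at 133.2. Between the array labelled HB9-GFP+ and the ES array, 1 was higher and 0 lower, namely the neurexin family gene Cntnap2, at 1167.7 against 258.4.

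Since Foxp2 marks Purkinje cells, their markers were read on the same arrays, from a list added after the Foxp2 values were seen. Of 13 measured, the array labelled HB9-GFP+ detected 3, granule 11, Sox1 2 and ES 3. The list's summed signals were 2697.5, 19354.5, 1403 and 2428.2. On the granule array Calb1 was at 2703.5, Pcp2 at 1954.4 and Car8 at 2635.2, against 123.1, 19.7 and 56.8 on the Sox1 array. What part Purkinje cells had in the granule signal of Foxp2 was not tested. On the Sox1 array Foxp2 was detected while Calb1, Pcp2 and Car8 were all undetected.

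**Figure D3:**
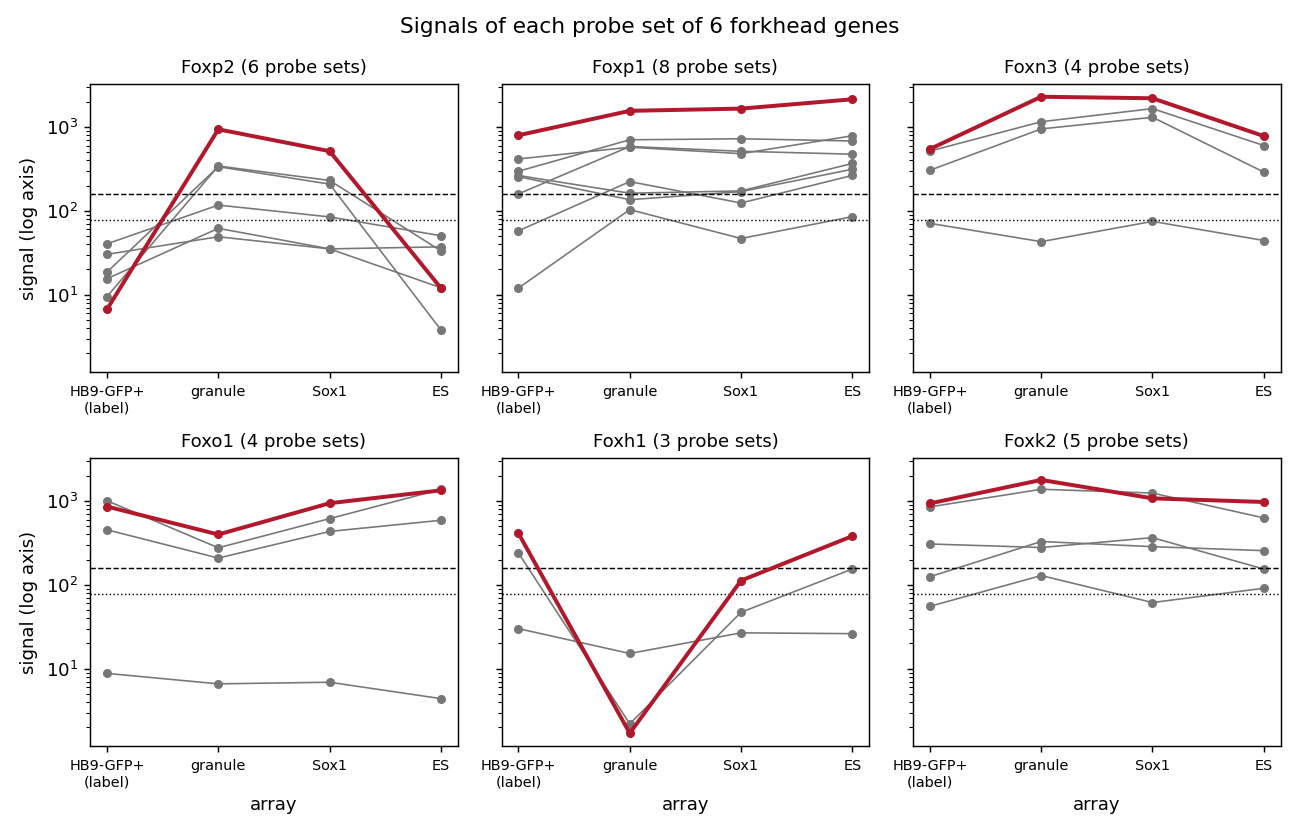
Signal (log axis) on the 4 arrays of every probe set of Foxp2, Foxp1, Foxn3, Foxo1, Foxh1 and Foxk2, with lines joining values of a probe set, the representative in red, and horizontal lines at the low level and the detection level. The 3 detected probe sets of Foxp2 and of Foxn3 share an order of neural over other arrays, and all 3 detected probe sets of Foxo1 are lowest on the granule array.

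In the FoxN class, Foxn3 separated the neural arrays from the others and Foxn2 did not. Foxn3, a repressor, read 546.4 (array labelled HB9-GFP+), 2297.2 (granule), 2203.4 (Sox1) and 779.8 (ES). On the array labelled HB9-GFP+ it was 4.20-fold lower than granule and 4.03-fold lower than Sox1, both just past the 4-fold rule. Granule was 2.95-fold and Sox1 2.83-fold higher than ES, both short of it. Of its 3 other probe sets, 2 were detected, and both were higher on the granule and Sox1 arrays than on each of the other arrays, with Sox1 over ES at 1.46 and 2.17 log2 units. Foxn2, whose function is little known, was highest on the ES array, at 2005.4, 3257.7, 1418.7 and 4475.1. It was 3.15-fold lower on Sox1 than on ES, and its further probe set read 77.8 on Sox1 against 236.7 on ES. Between granule and ES that probe set had the opposite sign, 0.12 against -0.46 for the representative. Foxn1, the thymus epithelium factor, and Foxn4, which acts in retina and ventral spinal interneurons, were undetected on all 4 arrays. Foxn4 came closest on the array labelled HB9-GFP+, at 116.1, against 26.8 on granule, 25.5 on Sox1 and 26.2 on ES.

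Foxk1, Foxk2, Foxj2 and Foxj3 were detected on all 4 arrays, and none was called. Foxk1 and Foxk2 are repressors that recruit the Sin3 complex. Foxk1 was at 397.9 (array labelled HB9-GFP+), 632.4 (granule), 807 (Sox1) and 317.8 (ES), a Sox1 level 2.54-fold higher than ES and short of a call. Foxk2 was at 936.7, 1788.5, 1077.6 and 975, and its granule signal was 1.83-fold higher than that of ES, with 3 of 3 other detected probe sets of the same sign. Foxj2 was at 1023, 966.2, 497.6 and 620.1, and Foxj3, a factor of muscle and germ cells in mice, at 2275.5, 3684.1, 2277.3 and 2556.2, both within 2.06-fold over all arrays. A further probe set of Foxj3 read 106.2 on granule, undetected, against 197.1 on ES, opposite in direction to the representative. Among 17 partners of the FoxK factors in the Sin3 and BAP1 complexes, 16 were detected on each array. Only Srf, the serum response factor gene, was called among them, higher on granule at 2077.8 than on ES at 365.2 and than on the array labelled HB9-GFP+ at 487.5.

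Foxj1 is the master regulator of motile cilia and was undetected on all 4 arrays, at 30, 55.7, 24.1 and 38.7. Of 28 measured ciliary genes, 7 were detected on the array labelled HB9-GFP+, 8 on granule, 6 on Sox1 and 9 on ES. For granule over ES, 4 were higher and 2 lower, and for Sox1 over ES 3 and 2, each with a median of 0. The shares of all genes were 6.83% and 4.99% for granule and 3.59% and 3.02% for Sox1. The RFX factors, which act beside Foxj1, differed in direction. Rfx3 was at 3114.3 on granule and 3376.7 on Sox1 against 258.3 on ES, and Rfx4 at 712.3 and 3308.7 against 88.8. Rfx2, by contrast, was at 68.8 and 62.9 against 508 on ES. In the array labelled HB9-GFP+ over ES, 0 were higher and 1 lower, the tektin gene Tekt1.

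Of the FoxO factors, Foxo1 was lowest on the granule array and Foxo3 and Foxo4 were not. Foxo1 read 860.4 (array labelled HB9-GFP+), 399.3 (granule), 943.2 (Sox1) and 1342.4 (ES). Granule was 3.36-fold lower than ES and 2.36-fold lower than Sox1, short of a call. Its 2 other detected probe sets gave -2.32 and -1.50 for granule over ES, of which the first would pass the rule. Foxo3 was at 1920, 2168.9, 1025.9 and 1459.2, and granule was 2.11-fold higher than Sox1. Foxo4 was at 369.8, 246.1, 355.1 and 224.5, with no difference above 1.65-fold.

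Regulators and targets of FoxO factors held calls in both directions. Granule against ES gave 2 higher and 6 lower of 41 measured (median 0), beside 6.83% and 4.99% of all genes. The higher ones were the FoxO kinase gene Akt1, at 1284.5 on granule against 38.9 on ES, and the cell cycle inhibitor gene Cdkn1b, at 6222.3 against 893.9. Akt1 has 4 probe sets and only the representative was read, so each Akt1 call here rests on the low ES signal of 1 probe set. The lower ones included Txnip, an inhibitor of glucose uptake (325.3 against 6043.7), Klf2 (160.2 against 1831.6) and the translation repressor gene Eif4ebp1 (378.1 against 12618.8). Sox1 against ES gave 1 higher, Akt1, and 4 lower (median -0.12). The kinase gene Sgk1, whose product also phosphorylates FoxO proteins, was among them at 683.5 against 8750.7. Of the array labelled HB9-GFP+ over ES, 1 was higher, Akt1 (359.1 against 38.9), and 0 lower. Against Sox1 it had 4 higher and 1 lower, and against granule 6 higher and 5 lower. The stress response gene Sesn3, a FoxO target, was lower on it in both, at 318.8 against 2034.2 on granule and 1655.7 on Sox1.

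Foxm1, the mitotic factor, was detected on all 4 arrays at 181.1, 324.5, 284.1 and 244.3, a spread of 1.79-fold. Its other probe sets did not share that order. For the array labelled HB9-GFP+ over ES, 2 of the 3 were detected, at 193 against 185.9 and at 214.1 against 82.6, while the representative was lower at 181.1 against 244.3, so no direction can be given there. All 22 measured mitotic targets were detected on every array. Over ES, granule had 0 higher and 1 lower (median -0.62), Sox1 0 higher and 1 lower (median -0.39), and the array labelled HB9-GFP+ 1 higher and 1 lower (median 0.19). Of all genes, 6.83%, 3.59% and 1.11% were higher and 4.99%, 3.02% and 0.813% lower in these comparisons, so such small counts do not set the list apart. Over granule, the array labelled HB9-GFP+ had 4 higher and 0 lower (median 0.82), beside 5.53% and 7.41% of all genes. Among the 4 were the cell cycle factor Mybl2 (4717.4 against 201.7) and the kinase genes Aurka (3847.5 against 854) and Plk1 (1009.2 against 224.2).

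Foxl2 and Foxq1 were each detected on 1 array. Foxl2, a determinant of ovarian granulosa cells, was at 95.3 (array labelled HB9-GFP+), 143.6 (granule), 264.1 (Sox1) and 60.2 (ES), at least 3.35-fold higher on Sox1 than on ES. Its other probe set was undetected throughout. Foxq1, which acts in hair and gastric epithelium, was at 68, 56.2, 71.6 and 190.2, at least 2.42-fold lower on each of the other arrays than on ES. The further Foxq1 probe set was also brightest on ES, at 32, 22.7, 123.4 and 274. RefSeq places Foxq1 next to Foxf2 and Foxc1 on chromosome 13, with at most 1 protein-coding gene between them, and both of those were undetected on all 4 arrays.

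The 18 undetected members had signals from 1.4 to 127.9 on their representative probe sets. They were Foxa3, Foxb1, Foxb2, Foxc1, Foxc2, Foxd1, Foxd2, Foxd4, Foxe3, Foxf1, Foxf2, Foxi1, Foxj1, Foxl1, Foxn1, Foxn4, Foxp3 and Foxs1. A signal under the detection level does not show that a gene is silent, since probe sets differ in sensitivity. Foxc1, Foxc2, Foxf1, Foxf2, Foxd1, Foxl1 and Foxs1 are known from mesenchyme, stroma or vessel wall. Foxc1 came closest to detection on the Sox1 array, with 56.7, 95.5, 127.9 and 26.4. Some other mesenchymal genes were bright on the array labelled HB9-GFP+. There 15 of 29 were detected, beside 51.3% of all genes on that array, against 14 on granule, 8 on Sox1 and 6 on ES. The array labelled HB9-GFP+ had 8 of the 29 higher and 0 lower than ES (median 0.36), beside 1.11% and 0.813% of all genes. The higher ones included Col3a1 (6165.2 against 20.6) and Dcn (3375.9 against 24). On that array Foxf1 was at 97.9, Foxc2 at 51.9, Foxd1 at 42.5 and Foxf2 at 19.1. These forkhead genes were named from among the undetected members, so their low signals follow from that choice. They make no contrast with the list.

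Telencephalic genes were measured as a further neural setting of forkhead factors. Of 26, Sox1 against ES gave 3 higher and 0 lower, the homeodomain factors Lhx2 (1250.6 against 33.3) and Pax6 (2996.7 against 217.8) and the zinc finger factor Fezf2 (467.2 against 6.1). On granule, 3 were higher and 1 lower than on ES, and the array labelled HB9-GFP+ against ES 0 and 0. Of all genes, 3.59% were higher and 3.02% lower on Sox1 than on ES, and 6.83% and 4.99% on granule. Foxb1, which marks the caudal midline and hypothalamus, was undetected but brightest on the Sox1 array, at 6.5, 52.3, 101.3 and 17.

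**Figure D4:**
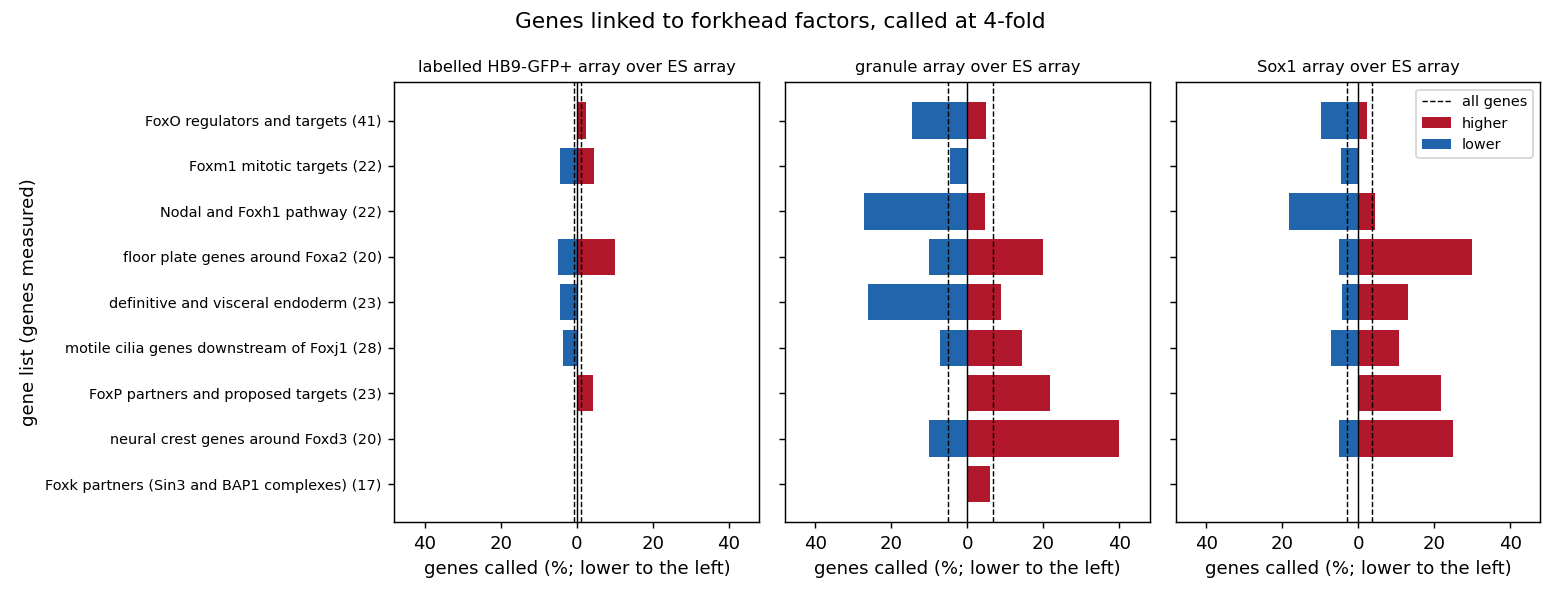
Percentage of the genes measured in 9 lists linked to forkhead factors that were called higher (red, to the right) or lower (blue, to the left) against the ES array, with dashed lines at the percentage of all genes called. Of the FoxP list, 5 of 23 genes were higher and 0 lower on both the granule and Sox1 arrays, and 0 of 17 FoxK partners were called on the Sox1 array or the array labelled HB9-GFP+.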

How the data were processed

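Total RNA was hybridised as biotin-labelled cRNA to 4 Affymetrix arrays, 1 per kind of cell, per the labels' protocols. The deposited values are linear intensities from 0.1 to 43110.3 for 45101 probe sets. GCRMA is named without a version, per the submitters' processing notes, yet each array's mean after trimming 2% at each end was 500.0, which is the form of a scaled average difference, so how the deposited intensities were made is uncertain. Such scaling forces a common average on all arrays. Median signals were 61.9, 90.7, 79.5 and 86.2 on the array labelled HB9-GFP+ and the granule, Sox1 and ES arrays.

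Symbols came from the platform annotation, where 34958 probe sets had 1 symbol, 932 several and 9211 none, and the 64 control probe sets entered no gene. All 37 members matched a RefSeq gene identifier of GRCm38.p6, without a change of symbol. They had 82 probe sets, and 16 members had 1 alone. Other forkhead genes were not analysed here, nor was 1 gene that the naming rule lists.

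Calls were made on the whole table of 18193 genes with Python 3.11.15, numpy 2.4.6 and pandas 2.3.3, on log2 signals without a pseudocount, in 6 comparisons. The number of arrays limits the precision. All 37 members are accounted for, those detected on any array by value, and up to a few called genes of each linked list are named by the size of their difference; uncalled list genes named beside them were chosen after their values were seen. List counts were made on the deposited scale alone. The shares of all genes called in each comparison, given with the forkhead counts, are the background for the list counts too. Members and lists were chosen with earlier results of these data known, and the Purkinje list and 2 of the 10 alternatives were added after seeing the data.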

Additional observations from a re-analysis of the deposited data

Results flagged for a closer look

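Probe sets whose annotation names a forkhead gene together with other genes entered no comparison, and 2 of them were detected. The probe set shared by Foxo3 and Gm38485 read 227 (array labelled HB9-GFP+), above the detection level, and was undetected elsewhere, with 100.9 (granule), 8.6 (Sox1) and 53.1 (ES). The Foxo3 probe sets with 1 symbol that were detected, 2 of 3, were above the detection level on all 4 arrays. The probe set shared by Foxm1, Pebp1 and Tex52 read 623.7 (array labelled HB9-GFP+), 1118.3 (granule), 1128.3 (Sox1) and 781.6 (ES), detected on each. Which of the genes named gave these signals was not tested. With 1 array per group, samples within a group could not be compared.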

How the results depend on the processing

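Of the 11 calls made on Foxa2, Foxh1, Foxn3 and Foxp2, no sign changed under any alternative. The 3 calls on Foxa2 held in 9 of 9 settings, those on Foxp2 in 7 or 8, on Foxn3 in 6 or 7 and on Foxh1 in 6 or 7, and the cause of the losses was not tested. The settings at 2-fold, with no low level and with detection at 2 log2 units could by construction neither lose a call nor change a sign. The 8-fold setting could change no sign either. These tallies therefore overstate how often a call was put to a trial. Foxa2 has 1 probe set, whose name ends in neither _x_at nor _s_at. Averaging or leaving out probe sets could therefore not change its signals, and its tally is not comparable with those of genes with several. Counts below are forkhead genes out of 37, and the settings that only shift the threshold change counts by construction. Quantile normalization gave 2 higher for the array labelled HB9-GFP+ over granule, adding Foxd3, and 2 lower for that array over Sox1, losing Foxn3 at -1.93 log2 units. The difference between the arrays' median log2 signals of 11 reference genes was -1.70 for granule over ES, -1.11 for Sox1 over ES and -0.62 for the array labelled HB9-GFP+ over ES, whereas the median of those genes' own differences was -0.50, -0.04 and -0.07. Subtracting the first gave 9 higher and 0 lower for granule over ES, 5 higher for Sox1 over ES, 1 higher (Foxp4) for the array labelled HB9-GFP+ over ES and 4 lower for that array over granule. Centring on the reference genes' own deviations gave 2 higher for granule over ES, Foxn3 with Foxp2. The mean over probe sets gave 0 higher and 0 lower for granule over ES, 1 higher for Sox1 over ES (Foxa2), 1 lower for the array labelled HB9-GFP+ over Sox1 (Foxa2) and 0 higher and 0 lower for that array over granule, with 8 members detected on granule and 10 on Sox1. Leaving out probe sets ending in _x_at or _s_at gave 2 lower for granule over ES, adding Foxo1. With no low level there were 3 lower for granule over ES, 2 higher for the array labelled HB9-GFP+ over granule and 2 lower for granule over Sox1. At 2-fold there were 1 higher and 4 lower for the array labelled HB9-GFP+ over ES, 2 and 5 for granule over ES, 6 and 4 for Sox1 over ES, 3 and 6 for the array labelled HB9-GFP+ over Sox1, 3 higher for that array over granule, and 2 and 3 for granule over Sox1. At 8-fold there were 0 lower for granule over ES, 1 higher for Sox1 over ES, 1 lower for the array labelled HB9-GFP+ over Sox1, and 0 higher and 1 lower for that array over granule. No paired analysis was possible because each group has 1 array, and for the same reason no replicate could be left out. Signal over background limits the 18 undetected members.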
